A study of Homo sapiens with 6 samples.

Results

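The genes described here are 42 human genes of the interferon response, chosen by symbol: products that type I interferons switch on, the cytoplasmic RNA helicases that sense viral RNA, and the transcription factors that drive both. All 42 symbols matched a row of the count table, which holds 67026 genes, and 38 of them passed the filter on low counts together with 16254 genes in all. The study measured messenger RNA in tumours grown from the human prostate cancer cell line PC-3, an established line, and compared tumours with and without a knockdown of versican, a large proteoglycan of the extracellular matrix encoded by VCAN. One group, shVCAN, had 3 tumours from cells carrying a lentiviral short hairpin RNA against VCAN, and the other, shGFP, had 3 tumours from cells carrying a hairpin against GFP as the knockdown control. Both groups shared everything else that the labels give. The transduced PC-3 cells had been selected with puromycin, which kills cells without the vector, and 1200000 cells per mouse were placed under the skin in Matrigel. The hosts were males, 4 to 5 weeks old, of the immunodeficient strain NSG (NOD.Cg-Prkdcscid Il2rgtm1Wjl/SzJ), which lacks mature T, B and NK cells but keeps macrophages, neutrophils and all stromal cells, and growth was followed for 4 weeks. Nothing in the labels says whether each hairpin line was a pool or a clone, or how many hairpins against VCAN were used. Nor do they say that each library came from a separate animal. Each library is called a tumour here, and the p-values measure only the spread between these libraries.

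Cells recognise viral RNA through the helicases RIG-I (gene RIGI) and MDA5 (gene IFIH1), which signal through the mitochondrial adaptor MAVS to the kinase TBK1 and the factor IRF3 and so switch on interferon genes. Secreted type I interferon binds its receptor on the same or other cells. The kinases JAK1 and TYK2 phosphorylate STAT2, which joins IRF9 in a complex that binds interferon-stimulated response elements (ISREs) in the promoters of the genes described here. Their products cut, edit, bind or trap viral RNA and particles, and many tumours and cancer cell lines express some of them without infection.

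Libraries held 12959840, 13327617 and 13134546 counts in shVCAN tumours and 12936539, 11253058 and 11633764 counts in shGFP tumours. Values below are normalised read counts (CPM, counts scaled to a common library size after TMM scaling), given as mean ± SD with n = 3 tumours per group, and each fold change is the log2 of shVCAN over shGFP, with its standard error (SE). A gene is said to have risen or fallen where edgeR's quasi-likelihood test gave a Benjamini-Hochberg adjusted p under 0.05 over all 16254 tested genes. VCAN itself averaged 3.66 ± 1.19 CPM in shVCAN tumours and 10.6 ± 0.809 CPM in shGFP tumours, a log2 fold change of −1.53 (SE 0.207, edgeR adjusted p = 4.59e-07). Of 6 tested markers of prostate epithelium and PC-3 cells, CD44 rose (log2 fold change 0.47) and KRT18 (−0.54), EPCAM (−0.29) and KRT8 (−0.19) fell. Keratin genes KRT8, KRT18 and KRT19 stood at 249.6 to 620.9 CPM in every tumour, and KLK3 (prostate-specific antigen) had no count. Mitochondrial messenger RNAs took 6.39% to 7.63% of the counts in shVCAN tumours and 13.3% to 16.2% in shGFP tumours. Some lists of markers of other cell types also differed. The summed level of 9 fibroblast and pericyte markers was 386.8 to 481.7 CPM in shVCAN tumours and 817.0 to 918.3 CPM in shGFP tumours (1 rose and 4 fell of 7 tested). COL1A1 made up most of that sum, at 300.5 ± 48.9 CPM in shVCAN tumours and 618.8 ± 37.5 CPM in shGFP tumours. DCN and PDGFRB did not pass the filter. The sum of 6 endothelial markers was 48.3 to 52.5 CPM in shVCAN tumours and 86.9 to 88.6 CPM in shGFP tumours (3 fell of 4 tested). Of these, VWF and CLDN5 did not pass the filter. For 5 skeletal muscle markers the sums overlapped, at 141.1 to 212.9 CPM in shVCAN tumours and 190.4 to 330.6 CPM in shGFP tumours. Of 4 tested, 3 fell by edgeR and limma-voom and 1 by DESeq2. Over all tested genes 19.2% rose and 21.1% fell. The part of these markers in the results below was not tested. In bulk RNA, fewer cells of a type and less RNA per cell cannot be told apart. The host cells were mouse and the counted genes are human, so these levels count PC-3 RNA or mouse reads that align to human genes. Which of these it was is not known, and mouse leukocytes may be missed for the same reason. Markers of leukocytes were near 0: the sum over 11 of them was 1.23 to 2.85 CPM in shVCAN tumours and 2.47 to 4.37 CPM in shGFP tumours, and CD163, AIF1, CD3E and NKG7 had no count in any library. Neither of the 2 tested leukocyte markers was called by edgeR or DESeq2, while limma-voom called 1 lower, which also had an unadjusted p under 0.05 by edgeR. Of 5 markers of plasmacytoid dendritic cells, CLEC4C, LILRA4, IL3RA and GZMB had no count in any library, and TCF4, which many other cells express, fell.

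The ISRE and the GAS element, a second kind of interferon response element, were looked for in the promoters first. RefSeq windows from 250 bases before to 50 bases after the gene start (GRCh38.p14) were at hand for 33 of the 42 genes, in 44 windows where a gene has several starts. The ISRE core searched was GAAANNGAA, where N is any base, or its reverse complement TTCNNTTTC, and the GAS core was TTCNNNGAA, which reads the same on both strands. An ISRE core stood in a window of 23 of the 33 genes (69.7%), against 2693 of all 27305 genes with a window (9.86%), and a GAS core in 9 (27.3%), against 9.38% of all genes. With 1 more A required at the end of the ISRE core, 22 of the 33 genes (66.7%) and 4.38% of all genes held it. A match is a string of letters and was not tested for binding. The 150 bases before the start are shown for 6 genes that differ in what they did in the tumours while each holding an ISRE core. They are written 5′ to 3′ on the strand of the gene, with every ISRE core that lies wholly within them in capitals. A further core of IFIT5, starting at position −3 from the gene start, runs past the end and stays in lower case. IFIT5 (chr10:89414418-89414567, plus strand) and ISG20 (chr15:88638866-88639015, plus strand) rose, ISG15 (chr1:1013347-1013496, plus strand) was not called, and IFI44L (chr1:78620298-78620447, plus strand), BST2 (chr19:17405631-17405780, minus strand) and OAS3 (chr12:112938324-112938473, plus strand) fell.
IFIT5: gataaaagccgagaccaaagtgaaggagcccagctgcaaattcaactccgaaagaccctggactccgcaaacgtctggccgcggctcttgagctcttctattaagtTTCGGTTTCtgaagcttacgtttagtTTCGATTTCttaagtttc
ISG20: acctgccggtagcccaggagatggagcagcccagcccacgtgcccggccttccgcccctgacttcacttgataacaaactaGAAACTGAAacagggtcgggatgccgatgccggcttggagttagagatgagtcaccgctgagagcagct
ISG15: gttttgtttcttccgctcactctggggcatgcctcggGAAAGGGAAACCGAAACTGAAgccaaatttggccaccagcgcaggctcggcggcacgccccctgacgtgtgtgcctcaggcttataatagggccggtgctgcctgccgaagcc
IFI44L: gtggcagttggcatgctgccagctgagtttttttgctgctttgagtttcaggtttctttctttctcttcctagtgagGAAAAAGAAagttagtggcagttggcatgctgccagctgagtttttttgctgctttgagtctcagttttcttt
BST2: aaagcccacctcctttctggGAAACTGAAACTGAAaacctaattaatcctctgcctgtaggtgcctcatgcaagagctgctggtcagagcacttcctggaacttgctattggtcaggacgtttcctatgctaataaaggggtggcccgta
OAS3: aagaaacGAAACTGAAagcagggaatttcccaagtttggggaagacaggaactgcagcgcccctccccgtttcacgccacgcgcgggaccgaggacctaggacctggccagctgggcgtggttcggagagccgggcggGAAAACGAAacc
In ISG15, 3 cores overlap in a single run, and in BST2 the 2 cores overlap as well, while IFIT5 carries its cores as the reverse complement close to the start. Of the 23 genes with an ISRE core, 2 rose, 11 fell, 9 were not called and 1 was not tested. Of the 10 genes whose windows held none, 2 rose, 3 fell, 4 were not called and 1 was not tested. Over all tested genes, with or without a core, 19.2% rose and 21.1% fell. Genes with and without the core were found among the risers and among the fallers, and a link between core and call was not tested.

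**Figure D1:**
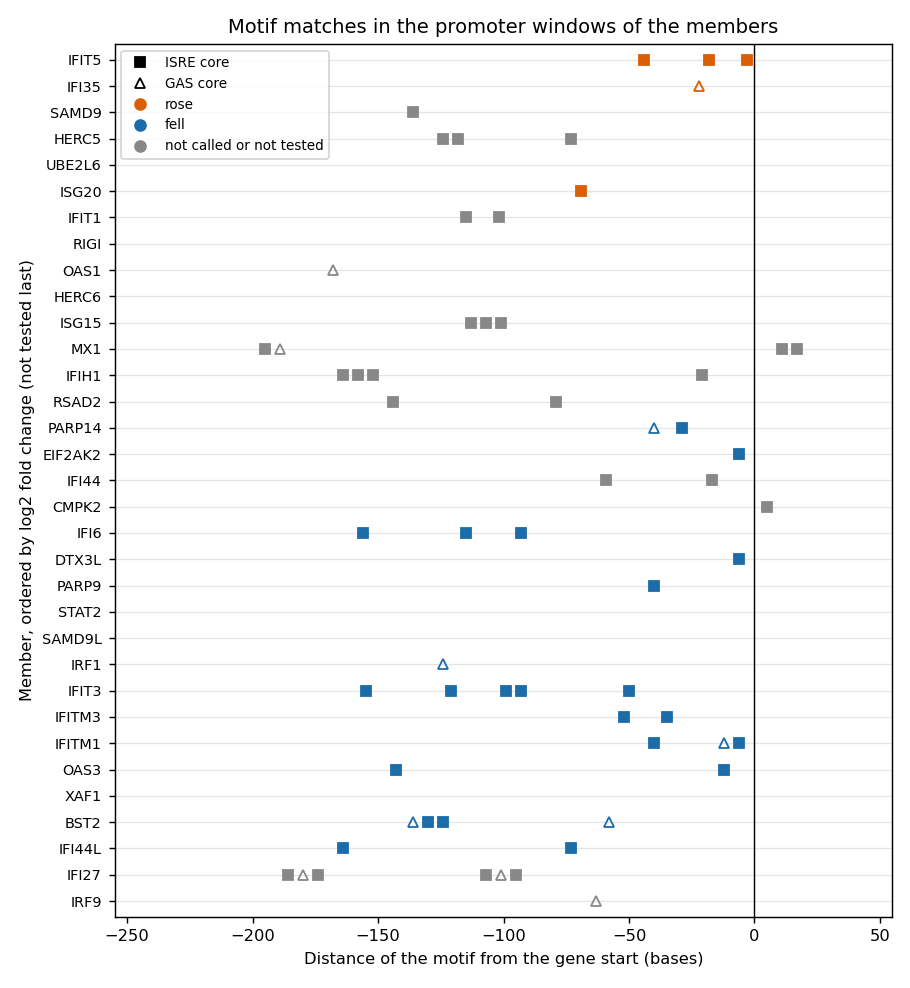
Positions of ISRE cores (squares) and GAS cores (triangles) in the promoter windows of the 33 genes with a window, as distance from the gene start in bases on the x axis. Genes run down the y axis by log2 fold change, shVCAN over shGFP, with IFI27 and IRF9, which were not tested, last, and colours mark genes that rose, fell or were not called or not tested. Orange and blue squares both occur, and squares of all 3 colours lie before the start.

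In shVCAN tumours 5 of the 38 tested genes rose (13.2%), against 19.2% of all tested genes called higher, and 15 fell (39.5%), against 21.1% of all tested genes called lower. The other 18 did not pass the test, with log2 fold changes of −0.37 to 0.54. The risers were OASL, IFIT5, IFI35, UBE2L6 and ISG20, and the falls with the smallest p were OAS3, IFI44L, IFITM3, BST2 and STAT2. The median log2 fold change of the 38 genes was −0.175, beside 0.00136 over all tested genes. Changes were mostly modest: the values ran from −1.35 to 0.84, and only IFI44L, BST2 and XAF1 (7.89% of the 38) changed at least 2-fold, against 5.44% of all tested genes. The summed level of the 42 genes was 1391.3, 1316.7 and 1325.7 CPM in shVCAN tumours and 1549.8, 1444.5 and 1427.0 CPM in shGFP tumours. Between groups the tumours did not overlap for 22 of the 38 genes (57.9%), 9 higher and 13 lower in shVCAN, against 48.7% of all tested genes. IFITM1, EIF2AK2 and PARP14 passed the test although the groups overlapped.

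Which of the weaker changes passed the test depended on how libraries were scaled. With library size alone in place of TMM, the median over all tested genes moved to 0.168, 73.4% of all calls were higher in shVCAN tumours instead of 47.7%, and the median of the 38 genes was −0.00719. Under that scaling 12 of the 38 genes were higher and 7 lower: HERC5, IFIT1, ISG15, MX2, RIGI, SAMD9 and USP18 joined the rises, and DTX3L, EIF2AK2, IFI6, IFIT3, IFITM1, IRF1, PARP14 and PARP9 left the falls. All 5 rises, and the falls of BST2, IFI44L, IFITM3, OAS3, STAT2 and XAF1, were called under each of the 16 alternatives run.

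**Figure D2:**
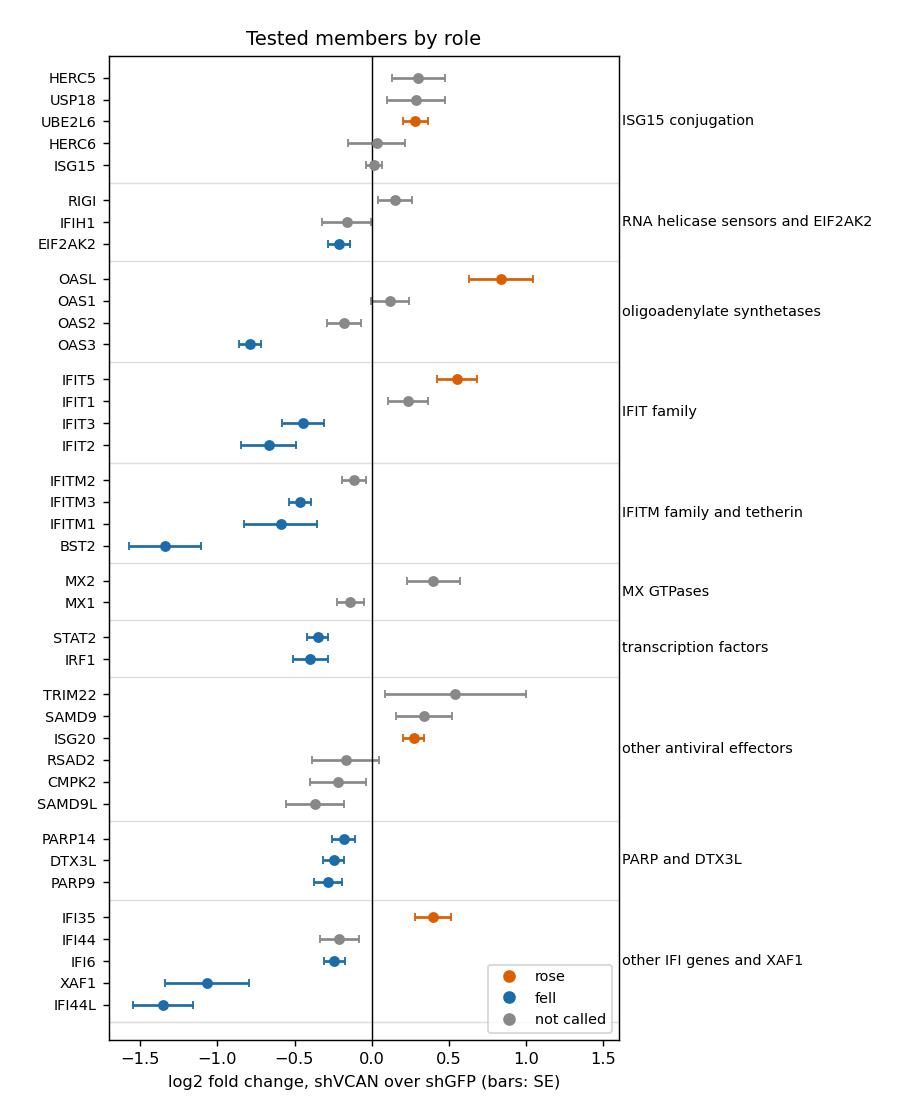
Log2 fold change, shVCAN over shGFP, of the 38 tested genes on the x axis with bars of 1 SE, grouped by role down the y axis and coloured by whether the gene rose, fell or was not called. Points spread from −1.35 (IFI44L) to 0.84 (OASL), and most role groups hold points on both sides of 0, while the IFITM family with tetherin, the PARP genes with DTX3L and the transcription factors lie below 0 (IFITM2 lies above 0, at 0.05, with library size alone). The genes of ISG15 conjugation lie above 0, from 0.01 to 0.30, though ISG15 and HERC6 took both signs under the alternatives.

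The helicase sensors RIGI and IFIH1 did not pass the test. RIGI, which recognises RNA ends with triphosphates, had 25.6, 23.6 and 24.5 CPM in shVCAN tumours and 24.6, 18.9 and 22.7 CPM in shGFP tumours, a log2 fold change of 0.15 (SE 0.111, edgeR adjusted p = 0.297). IFIH1, which recognises long double-stranded RNA, had 8.13, 9.10 and 10.4 CPM in shVCAN tumours and 10.4, 11.2 and 9.41 CPM in shGFP tumours, a log2 fold change of −0.16 (SE 0.159, edgeR adjusted p = 0.446). In both genes the tumours of the groups overlapped. DHX58, the gene of LGP2, a helicase without signalling domains that modulates the other sensors, had 1, 0 and 0 counts in shVCAN tumours and 3, 0 and 0 counts in shGFP tumours, too few for a comparison. EIF2AK2, the gene of the kinase PKR, which stops translation when it binds double-stranded RNA, fell to 66.7 ± 4.96 CPM in shVCAN tumours, against 77.1 ± 5.33 CPM in shGFP tumours, a log2 fold change of −0.21 (SE 0.0726, edgeR adjusted p = 0.0205). That call was lost without shVCAN tumour 3, without shGFP tumour 1 and without shGFP tumour 3. It was also lost with upper quartile factors, with library size only and at an adjusted p under 0.01.

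Of the 4 transcription factors, STAT2 and IRF1 fell. STAT2, the subunit that carries the activating domain of the interferon complex, had 81.0, 87.6 and 80.2 CPM in shVCAN tumours and 112.4, 99.6 and 105.1 CPM in shGFP tumours, a log2 fold change of −0.35 (SE 0.0653, edgeR adjusted p = 6.30e-05). IRF1, a factor induced mainly by interferon gamma, had 17.3, 19.1 and 19.5 CPM in shVCAN tumours and 21.2, 26.9 and 25.5 CPM in shGFP tumours, a log2 fold change of −0.40 (SE 0.115, edgeR adjusted p = 0.00600). Every shVCAN tumour lay below every shGFP tumour in both genes, but the call of IRF1 was lost without shGFP tumour 2. With an offset for length and GC content its log2 fold change was −0.22 (edgeR adjusted p = 0.123). Of the exonic bases of IRF1, 22.0% are shared with genes annotated on the opposite strand, and no source used here says whether reads were counted by strand. IRF9, the DNA-binding partner of STAT2, and IRF7, the factor that amplifies interferon production, had 0 counts in all 6 libraries, as had IFI27, often among the most strongly induced interferon genes. A count of 0 allows up to 3 counts, or 0.212 to 0.219 CPM in a shVCAN library and 0.250 to 0.279 CPM in a shGFP library. IRF9 shares 48.4% of its exonic bases with a same-strand gene, ENSG00000259529, which also had 0 counts in all 6 libraries, while IRF7 and IFI27 share none in GENCODE 29. Whether these zeros reflect the tumours or the counting was not tested.

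The oligoadenylate synthetases gave changes in opposite directions within 1 family. OAS1, OAS2 and OAS3 bind double-stranded RNA and make the oligoadenylates that activate RNase L, while OASL lacks that activity and enhances signalling by RIG-I. OASL (ENSG00000135114.12, chromosome 12, 121019111 to 121039242, minus strand, GRCh38) had 10.2, 7.97 and 7.88 CPM in shVCAN tumours and 3.50, 4.83 and 6.30 CPM in shGFP tumours, a log2 fold change of 0.84 (SE 0.207, edgeR adjusted p = 0.00158). It had the largest rise among the 38 genes, and all 3 shVCAN tumours lay above all 3 shGFP tumours. OAS3 (ENSG00000111331.13, chromosome 12, 112938352 to 112973249, plus strand) had 49.8, 54.3 and 46.6 CPM in shVCAN tumours and 93.6, 82.9 and 83.8 CPM in shGFP tumours, a log2 fold change of −0.79 (SE 0.0742, edgeR adjusted p = 5.31e-10). It had the smallest p of the 38 genes, with a wide gap between the groups. OAS2 and OAS1, its direct neighbours, were not called, with log2 fold changes of −0.18 (SE 0.113) and 0.12 (SE 0.125).

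Among the IFIT genes, whose products bind viral RNA ends and caps, 1 rose, 2 fell and 1 was not called. IFIT5 (ENSG00000152778.9, chromosome 10, 89414586 to 89421001), which binds RNA ends with phosphates, had 18.8, 19.5 and 22.8 CPM in shVCAN tumours and 14.1, 15.9 and 11.7 CPM in shGFP tumours, a log2 fold change of 0.55 (SE 0.130, edgeR adjusted p = 0.000979). IFIT2 had 8.49, 7.55 and 7.44 CPM in shVCAN tumours and 16.1, 12.3 and 8.86 CPM in shGFP tumours, a log2 fold change of −0.67 (SE 0.178, edgeR adjusted p = 0.00312). The shGFP tumours of IFIT2 were far apart, and without shGFP tumour 1 its log2 fold change was −0.42 (edgeR adjusted p = 0.0808). IFIT3, which stabilises IFIT1 on RNA, fell to 11.0 ± 0.527 CPM in shVCAN tumours, against 14.9 ± 0.718 CPM in shGFP tumours (log2 fold change −0.44, SE 0.135, edgeR adjusted p = 0.00910). IFIT1 was not called, with a log2 fold change of 0.23 (SE 0.128). These genes lie side by side on chromosome 10 and resemble each other in sequence, so reads that the counting could not place may affect them.

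Of the 4 genes of membrane restriction factors 3 fell. IFITM proteins sit in cell and endosome membranes and hinder the fusion of virus envelopes, and BST2, called tetherin, holds budding virus particles at the cell surface. BST2 (ENSG00000130303.13, chromosome 19, 17402939 to 17405648, minus strand) had 4.50, 2.40 and 2.55 CPM in shVCAN tumours and 9.33, 7.34 and 7.22 CPM in shGFP tumours, a log2 fold change of −1.34 (SE 0.235, edgeR adjusted p = 2.83e-05). IFITM3 had 56.2, 56.2 and 52.6 CPM in shVCAN tumours and 74.4, 79.4 and 74.0 CPM in shGFP tumours, a log2 fold change of −0.46 (SE 0.0699, edgeR adjusted p = 2.92e-06). In both genes the 2 groups stood clear of each other. IFITM1 fell to 3.92 ± 1.28 CPM in shVCAN tumours, against 5.93 ± 0.667 CPM in shGFP tumours (log2 fold change −0.59, SE 0.237, edgeR adjusted p = 0.0467). Its second shVCAN tumour, at 5.36 CPM, lay above the lowest shGFP tumour, at 5.16 CPM, and the call was lost without shVCAN tumour 1, shVCAN tumour 3, shGFP tumour 2 or shGFP tumour 3. It was also lost with the Wald test of DESeq2 (adjusted p = 0.0795), with upper quartile factors, with library size only, with no filter and at an adjusted p under 0.01. IFITM2 was not called, at 49.9, 44.9 and 50.2 CPM in shVCAN tumours and 49.8, 56.2 and 51.2 CPM in shGFP tumours (log2 fold change −0.12, SE 0.0790). With the length and GC offset it was called lower (−0.24, edgeR adjusted p = 0.00720). IFITM1 shares 32.5% of its exonic bases with the IFITM2 gene model on the same strand. IFITM3 shares 21.3% with a gene annotated on the opposite strand. How reads in these shared bases were counted is uncertain. Endothelial markers, which moved the same way, are given above, and their part in these falls was not tested.

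**Figure D3:**
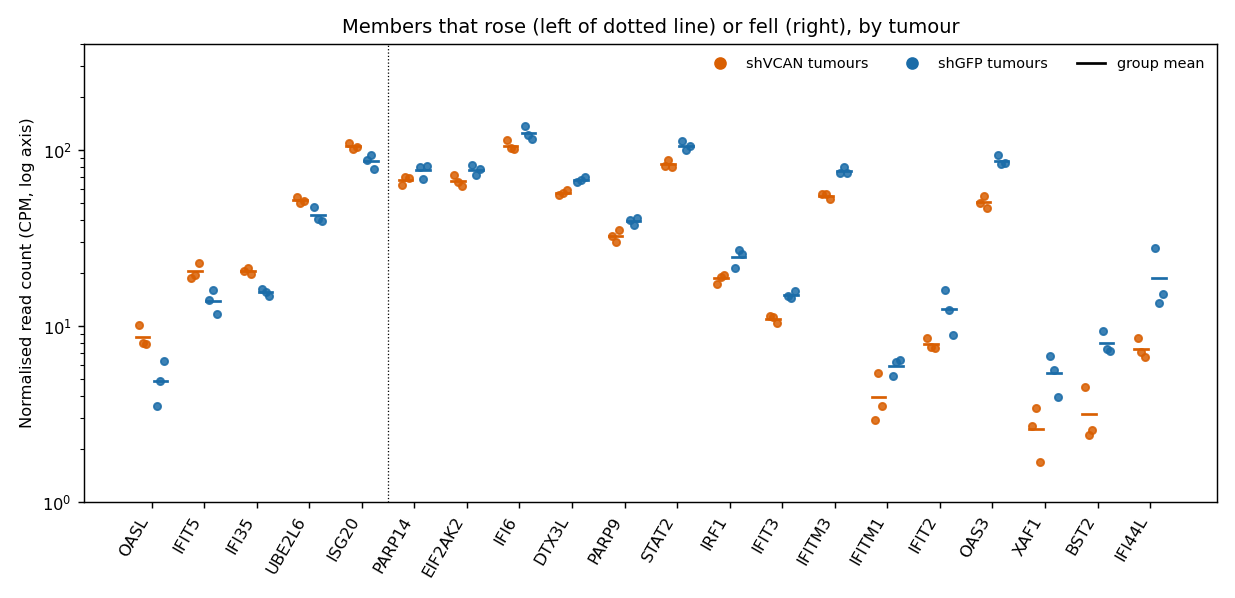
Normalised read count (CPM, log axis) of the 20 genes that rose or fell, with 1 point per tumour, shVCAN tumours left of shGFP tumours, and a line at each group mean. The 5 genes that rose stand left of the dotted line and the 15 that fell right of it. The groups lie far apart in OAS3 and closer, though without overlap, in IFITM3. In IFI44L 1 shGFP tumour, at 27.6 CPM, stands above the others of its group.

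Other interferon-induced proteins gave the largest fall. IFI44L (ENSG00000137959.16, chromosome 1, 78619922 to 78646145, plus strand), a cytoplasmic protein often used in blood signatures of interferon activity, had 8.49, 7.06 and 6.64 CPM in shVCAN tumours and 27.6, 13.5 and 15.3 CPM in shGFP tumours, a log2 fold change of −1.35 (SE 0.192, edgeR adjusted p = 1.19e-06). Without shGFP tumour 1, the highest, the log2 fold change was −0.95 and the call stayed. XAF1, which binds the apoptosis inhibitor XIAP, had 2.69, 3.39 and 1.68 CPM in shVCAN tumours and 6.74, 5.57 and 3.93 CPM in shGFP tumours, a log2 fold change of −1.07 (SE 0.272, edgeR adjusted p = 0.00212). Groups did not overlap in either gene, but 38.3% of the exonic bases of XAF1 are shared with a gene on the opposite strand, PRAL. IFI6, a small membrane protein that restrains apoptosis, had 113.6, 101.9 and 100.7 CPM in shVCAN tumours and 136.2, 121.8 and 115.4 CPM in shGFP tumours, a log2 fold change of −0.24 (SE 0.0666, edgeR adjusted p = 0.00421). IFI35, which pairs with the interferon-induced protein NMI, had 20.5, 21.2 and 19.8 CPM in shVCAN tumours and 16.2, 15.6 and 14.8 CPM in shGFP tumours, a log2 fold change of 0.40 (SE 0.116, edgeR adjusted p = 0.00668). The lowest shVCAN tumour of IFI35 lay above the highest shGFP tumour, and the spread within each group was small. IFI44, the neighbour and relative of IFI44L, was not called, at 14.4, 14.7 and 17.7 CPM in shVCAN tumours and 19.9, 17.7 and 16.5 CPM in shGFP tumours (log2 fold change −0.21, SE 0.126). With the length and GC offset IFI44 was called lower (−0.52, edgeR adjusted p = 0.000538).

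The ISG15 system attaches the ubiquitin-like protein ISG15 to newly made proteins. UBE2L6, the enzyme that carries ISG15 for conjugation, had 54.0, 49.7 and 51.4 CPM in shVCAN tumours and 47.3, 40.4 and 39.6 CPM in shGFP tumours, a log2 fold change of 0.28 (SE 0.0826, edgeR adjusted p = 0.00647). ISG15 was not called, at 334.4, 295.0 and 303.0 CPM in shVCAN tumours and 318.8, 307.6 and 296.5 CPM in shGFP tumours, with a log2 fold change of 0.01 (SE 0.0523, edgeR adjusted p = 0.852). It was the most abundant of the 42 genes per length, at 328.6 RPKM (CPM per kilobase of exon) over the 2 groups, followed by IFI6 at 132.9 and IFITM3 at 48.6, while TRIM22 had 0.204 and DHX58 0.0140. The ligase HERC5, its relative HERC6 and the protease USP18, which removes ISG15 and dampens the interferon receptor, were not called, with log2 fold changes of 0.30, 0.03 and 0.29.

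ISG20, an exonuclease that degrades single-stranded RNA, had 109.2, 100.8 and 103.9 CPM in shVCAN tumours and 88.1, 93.6 and 78.2 CPM in shGFP tumours, a log2 fold change of 0.27 (SE 0.0676, edgeR adjusted p = 0.00166). It was the only riser among 6 further antiviral effectors. RSAD2 (viperin), its neighbour CMPK2, TRIM22, SAMD9 and SAMD9L were not called, with log2 fold changes of −0.17, −0.22, 0.54, 0.34 and −0.37. The dynamin-like GTPases MX1 and MX2 were not called either. MX1 had 38.5, 35.9 and 33.5 CPM in shVCAN tumours and 42.5, 37.2 and 39.1 CPM in shGFP tumours (log2 fold change −0.14, SE 0.0882), and MX2 had a log2 fold change of 0.40 (SE 0.172, edgeR adjusted p = 0.0646). MX2 was called higher with the length and GC offset (0.60, edgeR adjusted p = 0.00359), with upper quartile factors, with library size only and without shGFP tumour 1. PARP9 and DTX3L, which form a ubiquitin ligase, and PARP14, an ADP-ribosyltransferase, all fell. DTX3L had 55.3, 56.6 and 59.5 CPM in shVCAN tumours and 66.0, 67.3 and 70.2 CPM in shGFP tumours, a log2 fold change of −0.25 (SE 0.0704, edgeR adjusted p = 0.00536). PARP9 fell to 32.4 ± 2.45 CPM in shVCAN tumours, against 39.5 ± 1.92 CPM in shGFP tumours (log2 fold change −0.28, SE 0.0894, edgeR adjusted p = 0.0114). PARP14 fell to 67.4 ± 3.67 CPM in shVCAN tumours, against 76.4 ± 6.88 CPM in shGFP tumours (log2 fold change −0.18, SE 0.0732, edgeR adjusted p = 0.0474). That call was lost in 13 of the 16 alternatives, among them those without shVCAN tumour 1, shVCAN tumour 3, shGFP tumour 1 or shGFP tumour 3, and the call of PARP9 was lost without shGFP tumour 3 and with the length and GC offset, among others.

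Many of these genes stand next to a relative in the genome, and the ratio of the read counts of 2 such neighbours needs no library scaling. Of 13 pairs less than 100000 bases apart, 6 had ratios that did not overlap between the groups (46.2%). Among all tested genes, each set against the next tested gene within the same distance, 43.5% of 12724 pairs had ratios that did not overlap, so the count of 6 is near that background. With 3 tumours against 3 the smallest two-sided p of an exact permutation test is 0.1, and all 6 had that value (0.217 after Benjamini-Hochberg adjustment over the 13 pairs), so no pair could pass the threshold. The ratio of OAS1 to OAS3 was 0.367, 0.313 and 0.341 in shVCAN tumours and 0.181, 0.196 and 0.167 in shGFP tumours, and that of OAS3 to OAS2 was 2.16 ± 0.293 in shVCAN tumours and 3.33 ± 0.459 in shGFP tumours. In each shVCAN tumour, OAS3 was thus lower relative to both of its neighbours than in any shGFP tumour. The ratio of IFI44L to IFI44 was 0.588, 0.479 and 0.376 in shVCAN tumours and 1.39, 0.759 and 0.923 in shGFP tumours. For SAMD9 to SAMD9L it was 1.71 ± 0.159 in shVCAN tumours and 1.02 ± 0.244 in shGFP tumours, although neither gene was called alone. The ratio of MX2 to MX1 was 0.289 ± 0.0331 in shVCAN tumours and 0.197 ± 0.0351 in shGFP tumours, and that of IFIT3 to IFIT1 was 0.642 ± 0.0603 in shVCAN tumours and 1.02 ± 0.0974 in shGFP tumours. PARP9 and DTX3L, whose genes start next to each other on opposite strands, kept overlapping ratios of 0.568 ± 0.0339 in shVCAN tumours and 0.582 ± 0.0255 in shGFP tumours.

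**Figure D4:**
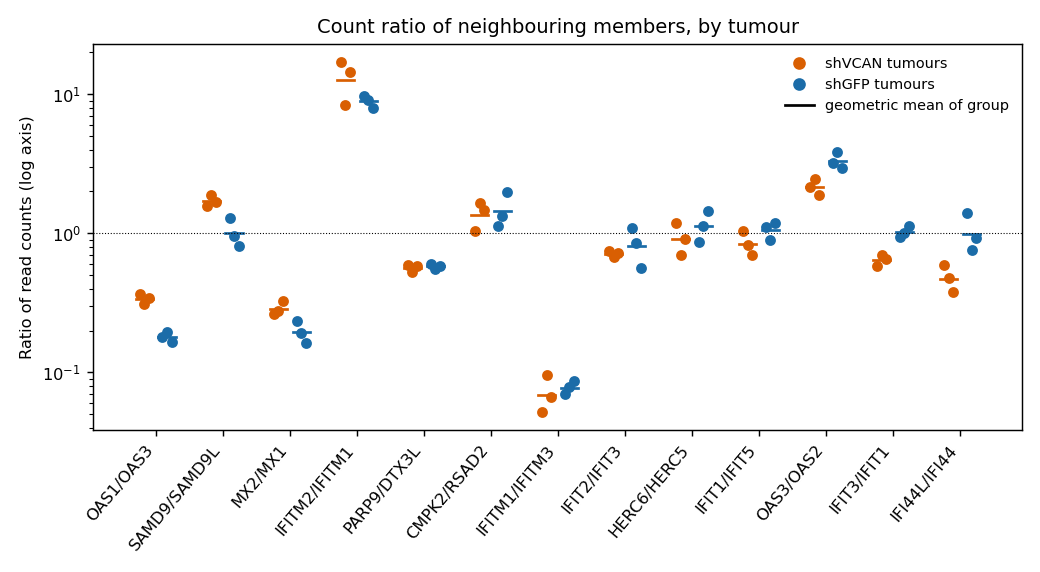
Ratio of the read counts (log axis) of 13 pairs of neighbouring genes, with 1 point per tumour, shVCAN tumours left of shGFP tumours, and a line at each group's geometric mean. Pairs run from the largest positive to the largest negative difference. OAS1/OAS3, SAMD9/SAMD9L and MX2/MX1 lie higher in all shVCAN tumours, and IFI44L/IFI44, IFIT3/IFIT1 and OAS3/OAS2 lie lower.

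The tumours of a group also differed among themselves. In the shGFP group, tumour 1 had the highest level of its group for 23 of the 38 genes (60.5%), tumour 2 for 18.4% and tumour 3 for 21.1%, while over all tested genes the shares of tumours 1, 2 and 3 were 33.0%, 33.7% and 33.3%. In the shVCAN group, tumour 1 was highest for 44.7% of the 38 genes, tumour 2 for 23.7% and tumour 3 for 31.6%, against 30.6%, 35.6% and 33.9% of all tested genes for tumours 1, 2 and 3. The genes share their libraries and are not independent of each other, so these shares are a description. Without shGFP tumour 1, 7 of the 38 genes were called higher and 11 lower, 1 changed at least 2-fold (BST2, log2 fold change −1.20), and EIF2AK2, IFI6, IFIT2 and PARP14 lost their calls. Without that tumour the log2 fold change of XAF1 was −0.87 (edgeR adjusted p = 0.0296).

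**Figure D5:**
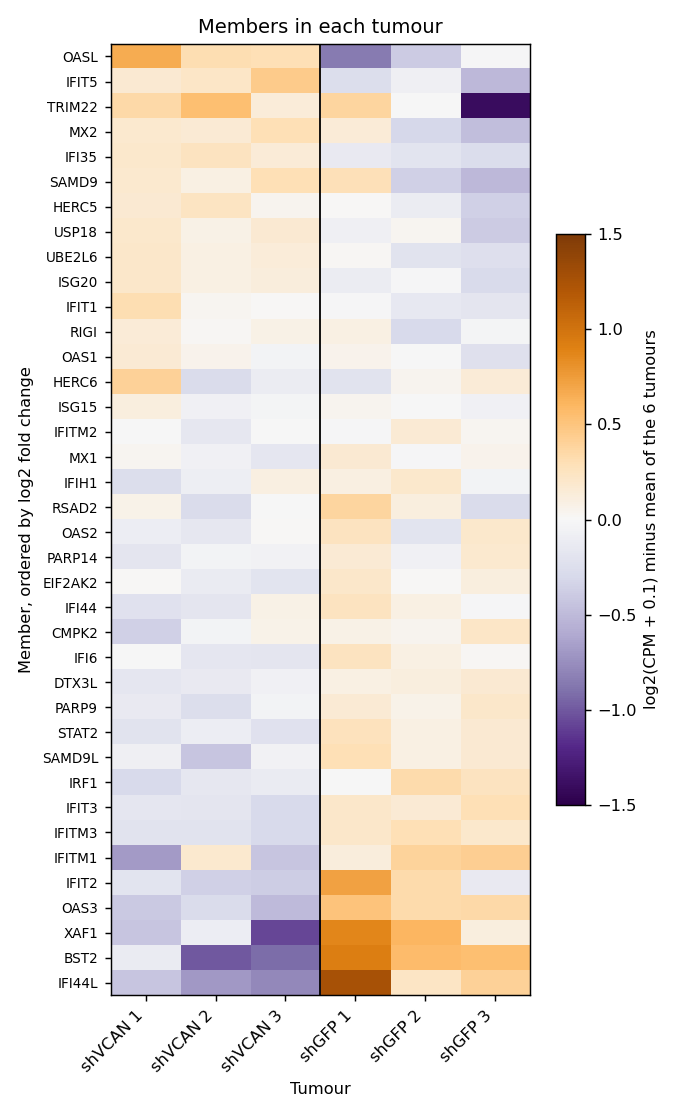
Level of the 38 tested genes in each tumour, as log2(CPM + 0.1) minus the mean of the 6 tumours, with shVCAN tumours in the 3 left columns, shGFP tumours in the 3 right columns and genes ordered by log2 fold change down the y axis. The darkest orange cell is IFI44L in shGFP tumour 1, and the column of that tumour is the most orange of the shGFP columns among the genes that fell.

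The other genes of the pathway were taken from 83 further genes in 9 lists, of which 68 were tested: 4 rose, 25 fell and 39 were not called, with a median log2 fold change of −0.202. Over all tested genes 19.2% rose and 21.1% fell, and the counts of the single lists below stand against the same shares. With library size alone 9 rose and 9 fell. Of 8 interferon genes, IFNB1, IFNK, IFNG, IFNL1 and IFNL2 had 0 counts in all 6 libraries, IFNA1 and IFNL3 had counts in 1 library only, and IFNE, an epithelial interferon and the only one tested, was not called (log2 fold change 0.26, SE 0.242). Of 6 receptor genes, IFNLR1, the lambda interferon receptor, fell to 6.50 ± 1.09 CPM in shVCAN tumours, against 9.27 ± 2.12 CPM in shGFP tumours (log2 fold change −0.51, SE 0.189, edgeR adjusted p = 0.0319). IFNAR1, a chain of the type I receptor, was not called (log2 fold change −0.14, SE 0.0796). Further along the pathway most changes were falls. JAK1 fell to 45.6 ± 0.371 CPM in shVCAN tumours, against 65.2 ± 0.693 CPM in shGFP tumours (log2 fold change −0.52, SE 0.0719, edgeR adjusted p = 8.58e-07). TYK2 fell too, with a log2 fold change of −0.31. In the list of RNA sensor adaptors and kinases, which also holds the endosomal sensor TLR3, 6 of 11 genes fell by edgeR (4 by DESeq2 and 6 by limma-voom). None rose by any of these tests, nor at an unadjusted p under 0.05 by edgeR. TLR3, which binds double-stranded RNA, fell to 0.963 ± 0.223 CPM in shVCAN tumours, against 1.96 ± 0.222 CPM in shGFP tumours (log2 fold change −1.02, SE 0.402, edgeR adjusted p = 0.0426), on 10 to 24 counts per library. The adaptor MAVS fell to 256.4 ± 2.50 CPM in shVCAN tumours, against 305.8 ± 5.51 CPM in shGFP tumours (log2 fold change −0.25, SE 0.0482, edgeR adjusted p = 7.99e-05). In the same list TICAM1, the adaptor of TLR3, TRIM25, a ubiquitin ligase, ZNFX1, a helicase, and IRF3 had log2 fold changes of −0.47, −0.24, −0.25 and −0.17, and TBK1 was not called (0.12, SE 0.102). Of 7 genes for binding or editing double-stranded RNA, ADAR, which edits adenosine to inosine and so hides self RNA from IFIH1, fell to 189.9 ± 2.43 CPM in shVCAN tumours, against 268.0 ± 4.93 CPM in shGFP tumours (log2 fold change −0.50, SE 0.0502, edgeR adjusted p = 2.23e-09), and the antiviral protein gene ZC3HAV1 fell with it (−0.26), while DDX60L (0.47) and PNPT1 (0.24) rose. Of 22 tested further interferon-stimulated genes 9 fell by edgeR (7 by DESeq2 and 9 by limma-voom), and none rose by any of these tests or at an unadjusted p under 0.05 by edgeR. The falls include LGALS3BP, a secreted glycoprotein, which fell to 424.9 ± 10.5 CPM in shVCAN tumours, against 584.3 ± 16.3 CPM in shGFP tumours (log2 fold change −0.46, SE 0.0453), and APOL6 (−0.88), PARP12 (−0.55) and PARP10 (−0.43).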

How the data were processed

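RNA of PC-3 xenograft tumours was extracted and read from both ends, per the labels' protocols. The submitters' processing notes name Trim Galore, STAR, DESeq2 and hg38 with no version or role. The table that the authors deposited holds raw read counts for each Ensembl gene, with no normalisation. How reads were counted (program, annotation, strand) and whether mouse reads were removed was not given in the sources used here, so mouse reads that align to human genes may be counted. The growth protocol mentions a further group, which was not analysed here.

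Of 67071 rows, 45 second copies of pseudoautosomal genes with 0 counts were left out. Symbols were matched for 60659 of 67026 genes. Coordinates and shared exonic bases came from GENCODE 29 on GRCh38. The comparison used edgeR 4.0.16 (R 4.3.3) and its quasi-likelihood test after TMM scaling and filterByExpr, with no covariate beside the group. The SE is the absolute log2 fold change over the root of F, and RPKM values use the exonic length of all annotated exons. The test was tried on simulated data. Libraries held 11253058 to 13327617 counts, and the common biological coefficient of variation was 6.63%. Floors and counting error cover counting only, not amplification. Pairs of libraries differed with a chi-square per gene of 3.22 to 5.9 within groups, above sampling noise. That does not show that they came from separate animals, which the labels do not state. Each library was counted as 1 replicate. Neighbour ratios were compared with an exact two-sided permutation test in scipy 1.17.1.

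Alternatives to the scaling were size factors of DESeq2, upper quartile factors and library size only. Alternatives to the filter were none at all and at least 1 CPM in 3 libraries. Other tests were DESeq2 1.42.0 (Wald test) and limma-voom (limma 3.58.1). The remaining ones were the replicate number as a block, an offset for length and GC content, an adjusted p under 0.01, leaving out each tumour, and a longer ISRE motif. Values were given for all called genes, for the RNA sensors, for the 6 uncalled genes with the highest mean CPM, for genes that did not pass the filter and, from each pathway list, for up to 4 called genes with the smallest p plus MAVS, TBK1, IRF3 and IFNAR1. A named gene is not reported here. Other genes were named after their values were seen. The 42 genes and the lists were chosen with earlier results of these data known.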

Additional observations from a re-analysis of the deposited data

How the results depend on the processing

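No called value changed sign under an alternative, while HERC6, IFIH1, IFITM2, ISG15, MX1 and RSAD2, none of them called, took both signs. Of the single-gene values 554 kept their side of the threshold, 40 lost the call and 14 gained it. With library size only, 12 of the 38 genes were higher and 7 lower in shVCAN tumours, 9 of the pathway genes were higher and 9 lower, and 5228 of all genes were higher and 1890 lower. At an adjusted p under 0.01, 1 pathway gene was higher and 16 were lower. With 1 tumour left out, 5 to 7 of the 38 genes were higher, 11 to 15 lower and 1 to 4 at least 2-fold apart. Of the pathway genes 2 to 5 were higher, with 2 without shVCAN tumour 3, and 17 to 24 lower. Of all genes 2596 to 3086 were higher and 2938 to 3438 lower, and the log2 fold change of VCAN was −1.83 to −1.36. The causes of these shifts were not tested, and leaving out a tumour also lowers the number of samples.

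Tumours with the same replicate number did not deviate together, with correlations of 0.0179, 0.0159 and −0.0204, so the numbers were not taken as pairs. With the replicate number as a block, 5 of the 38 genes were higher and 14 lower, PARP14 being the call lost, and the log2 fold change of VCAN was −1.55. Depth limits the genes at a few CPM: TRIM22, XAF1, BST2 and IFITM1 rest on few reads, as does OASL in shGFP tumours (42, 52 and 69 counts). For DHX58, IRF7, IRF9 and IFI27 no difference was detectable.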

Other observations

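Negative regulators of the interferon and cytokine signal were among the larger falls of the pathway genes, with 4 of 7 tested called lower by edgeR (3 by DESeq2 and 3 by limma-voom), against 21.1% of all tested genes. None was called higher by any of these tests, nor at an unadjusted p under 0.05 by edgeR. SOCS1, which blocks JAK kinases, had 9.73, 12.1 and 10.3 CPM in shVCAN tumours and 24.6, 23.9 and 19.2 CPM in shGFP tumours, a log2 fold change of −1.08 (SE 0.133). SOCS3, which acts mainly on receptors of the interleukin 6 family, fell to 27.6 ± 1.20 CPM in shVCAN tumours, against 47.1 ± 5.65 CPM in shGFP tumours (log2 fold change −0.77, SE 0.0930). PIAS1 and PIAS4, ligases of the small modifier SUMO that bind STAT proteins, had log2 fold changes of −0.38 and −0.29.

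Of the 3 tested genes of DNA sensing, SAMHD1, a nucleotide hydrolase, rose to 89.4 ± 8.5 CPM in shVCAN tumours, against 69.1 ± 1.1 CPM in shGFP tumours (log2 fold change 0.37, SE 0.0706), and IFI16, a DNA sensor, rose too (0.26, SE 0.0896). CGAS, which makes the messenger that activates STING, was not called (−0.11, SE 0.122), and STING1 itself had 0 counts in all 6 libraries. None of 8 tested genes typical of interferon gamma, GBP1 to GBP4, CIITA, IDO1, CXCL10 and CXCL11, was called by edgeR, by DESeq2 or by limma-voom, and 0 had an unadjusted p under 0.05 by edgeR. CXCL10 (log2 fold change 0.76, SE 0.488) and CXCL11 (1.03, SE 0.510) were higher in every shVCAN tumour than in any shGFP tumour, on 4 to 26 counts per library. In the others the groups overlapped, while over all tested genes the groups did not overlap for 48.7%. CIITA and IDO1 also rest on few reads.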
